A study of Mus musculus with 92 samples.

Results

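The neutrophil granule and S100 genes are 10 genes of myeloid cells. Mpo, Elane, Prtn3 and Ctsg code for enzymes of primary granules, Camp, Ltf, Ngp and Lcn2 for proteins of secondary granules, and S100a8 and S100a9 for calcium-binding proteins of the cytosol. They were chosen by gene symbol, and each of the 10 was found among the 29956 named genes measured by RNA-seq in 92 mouse libraries of 25 groups. As background, primary granules are filled at the promyelocyte stage of neutrophil development, with myeloperoxidase and serine proteases, and secondary granules are filled later, at the myelocyte and metamyelocyte stages. S100a8 and S100a9 proteins pair to form calprotectin, which is abundant in neutrophils and present in monocytes. Macrophages and microglia, the resident macrophages of the brain, are not known as cells that fill such granules.

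The study set macrophages grown from bone marrow (BM) beside macrophages grown from ER-Hoxb8 progenitors, which are marrow cells held as dividing progenitors by an estrogen-controlled Hoxb8 protein. It also used them as donor cells for brains without microglia, and as carriers of a disrupted Adar1, the gene for an RNA-editing enzyme whose symbol in the files is Adar. Levels are in CPM, counts scaled to a library of 1 M (mega) counts, rebuilt from the deposited log2 values. The libraries had been normalized in 6 separate sets, each with its own lowest value, so levels were compared inside a set and no test crosses sets. Depth, estimated from the steps between the lowest values of each library, was 44.7 to 52.1 M counts in BM progenitors, 16.9 to 30.6 M in microglia and 9.48 to 25.9 M in ER-Hoxb8 MLCs, and 6.16 to 52.1 M over all libraries. A level at or below 3 counts is treated as the floor. Floors cover counting error only.

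The BM groups came from WT FVB mice, as 3 libraries of lineage-depleted progenitors, 3 of monocytes enriched with magnetic beads and 3 of bone marrow-derived (BMD) macrophages kept for 7 days in M-CSF. ER-Hoxb8 cells, labelled Cas9 het and of an FVB mouse, were kept in beta-estradiol and GM-CSF as progenitors, or moved to M-CSF for 4 days or for 7 days, with 3 libraries each. Microglia-like cells (MLCs) were BM cells (6 libraries) or ER-Hoxb8 cells (6 libraries, labelled WT) placed in the brains of Csf1r-/- FVB mice and isolated again. The 9 microglia libraries came from WT FVB mice that received no cells. Cells from brain were sorted as live CD45+ CD11b+ cells, a gate that neutrophils, which carry both proteins, also pass. A GFP gate, which would keep out host cells where the donor cells carry GFP, is also described for transplanted cells, and the libraries it was used for are not in the labels. They were sorted into TRIzol LS and went through a different RNA extraction from the cultured cells, so brain and handling cannot be told apart in the comparisons of MLCs with macrophages. Ages are not in the labels.

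Adar1 was targeted with guide 1 or guide 2 in Cas9 het ER-Hoxb8 cells, against a non-targeting control guide (NTC). Guide 1 had 3 progenitor and 3 macrophage libraries beside 3 NTC progenitor and 3 NTC macrophage libraries, and guide 2 had 3 progenitor and 5 macrophage libraries in a set that holds no NTC library. Macrophages of NTC and Adar1 KO (guide 1) cells were also kept for 7 days in M-CSF with the JAK inhibitor baricitinib at labelled doses of 0, 0.0006, 0.016, 0.4 or 10 uM, in 33 libraries of 10 groups with 3 or 4 replicates each. The treatment text of the labels gives other numbers for the lower doses, so the amounts behind the labels 0.0006 and 0.016 uM are uncertain. Guide-carrying cells are sorted pools of edited cells, and whether their replicates came from separate transductions is not stated.

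Some libraries stood apart from their labels. The library labelled ER-Hoxb8 progenitor replicate 2 had a summed level of 4035 CPM over 5 macrophage markers, against 1867 and 430.8 CPM in replicates 1 and 3, and 3364 to 6393 CPM in the day 4 cells. Over 5 progenitor markers (Kit, Cd34, Flt3, Ms4a3 and Gata2) it summed to 20.4 CPM, against 117 and 1554 CPM in replicates 1 and 3. BMD macrophage replicate 3 had 1127 CPM of the monocyte gene F13a1, against 49.4 and 34.6 CPM in the other 2. Its name begins with wBM and theirs with Mac, a difference that the labels do not explain. ER-Hoxb8 MLC columns bear 2 name prefixes, GFPHox for replicates 1 to 3 and WTHox for replicates 4 to 6, and these 2 series did not overlap for 7 of the 10 members (all but Mpo, Elane and Ctsg) and for 19.8% of the 12518 genes tested in that set. WTHox was above GFPHox for the 7 members and for 9.31% of those genes. The WTHox names also end in Lo, which the labels do not explain. Over 4 monocyte markers (Ly6c2, Ccr2, F13a1 and Vcan), ER-Hoxb8 MLC replicate 6 summed to 6659 CPM, led by Ccr2, against 215 to 729.6 CPM in the other ER-Hoxb8 MLC libraries. Of the 9 microglia columns, 7 bear the prefix WT and 2, replicates 8 and 9, the prefix YSWT. NTC macrophage replicate 2 was normalized alone and is left out of the tests. Its name begins with NTC2, as do the names of the NTC progenitors, and it ends in Redo. The names of NTC macrophage replicates 1 and 3, which are tested, begin with NTC alone. The labels do not explain this difference, so whether the tested NTC macrophages and NTC progenitors are of the same line is not known.

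Promoters of the members are shown first, as a description. In results below, the secondary granule genes and S100 genes were higher together in MLCs than in macrophages, while the primary granule genes did not pass the test there. The part of promoter sequence in this was not tested. RefSeq promoters were matched for 10 of 10 members (GRCm38.p6, 300 bases each, from 250 before to 50 after the start), and 6 are printed here 5′ to 3′. Capitals mark matches, on either strand, to the C/EBP-type core TTGCNNAA or the PU.1-type core GAGGAAG; both are named for families of myeloid transcription factors. A match is a description of letters and not a binding site. Mpo lies at chr11:87793534-87793833 (plus strand), Elane at chr10:79886062-79886361 (plus strand) and Prtn3 at chr10:79879417-79879716 (plus strand); Ngp lies at chr9:110419558-110419857 (plus strand), Lcn2 at chr2:32387690-32387989 (minus strand) and S100a9 at chr3:90695672-90695971 (minus strand).
Mpo: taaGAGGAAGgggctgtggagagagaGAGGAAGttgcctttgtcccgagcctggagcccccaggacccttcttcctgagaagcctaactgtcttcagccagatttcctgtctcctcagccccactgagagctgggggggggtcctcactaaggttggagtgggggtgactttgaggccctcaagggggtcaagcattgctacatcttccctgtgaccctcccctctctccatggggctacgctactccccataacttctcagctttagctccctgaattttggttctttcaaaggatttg
Elane: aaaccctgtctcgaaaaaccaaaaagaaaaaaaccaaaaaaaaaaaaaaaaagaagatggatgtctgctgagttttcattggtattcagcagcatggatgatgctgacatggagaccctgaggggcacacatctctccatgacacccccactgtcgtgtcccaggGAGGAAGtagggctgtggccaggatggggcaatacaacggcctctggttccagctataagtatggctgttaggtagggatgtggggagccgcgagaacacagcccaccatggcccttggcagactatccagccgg
Prtn3: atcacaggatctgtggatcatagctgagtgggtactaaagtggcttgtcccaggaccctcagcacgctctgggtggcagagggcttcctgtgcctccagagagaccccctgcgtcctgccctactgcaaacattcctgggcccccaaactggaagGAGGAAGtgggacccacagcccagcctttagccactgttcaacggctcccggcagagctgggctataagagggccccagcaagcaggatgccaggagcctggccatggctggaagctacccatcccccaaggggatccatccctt
Ngp: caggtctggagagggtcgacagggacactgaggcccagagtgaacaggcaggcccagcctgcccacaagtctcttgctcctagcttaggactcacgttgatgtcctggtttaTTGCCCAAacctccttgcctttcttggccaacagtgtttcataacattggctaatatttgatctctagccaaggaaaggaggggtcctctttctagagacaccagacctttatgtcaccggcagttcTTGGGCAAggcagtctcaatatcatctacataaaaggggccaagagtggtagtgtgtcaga
Lcn2: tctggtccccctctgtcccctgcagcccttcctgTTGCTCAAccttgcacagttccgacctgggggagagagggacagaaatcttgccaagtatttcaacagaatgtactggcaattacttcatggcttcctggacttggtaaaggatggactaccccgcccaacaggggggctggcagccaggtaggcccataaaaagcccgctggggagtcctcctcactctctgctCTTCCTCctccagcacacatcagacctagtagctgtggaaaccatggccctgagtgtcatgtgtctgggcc
S100a9: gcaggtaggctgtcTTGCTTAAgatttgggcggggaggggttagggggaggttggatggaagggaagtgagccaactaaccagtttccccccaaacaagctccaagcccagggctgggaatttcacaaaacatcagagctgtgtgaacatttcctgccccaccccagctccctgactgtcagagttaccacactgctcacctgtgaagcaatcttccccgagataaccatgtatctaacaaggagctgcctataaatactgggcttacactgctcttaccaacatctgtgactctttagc

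The PU.1-type core was present in 6 of the 10 member promoters: those of the 4 primary granule genes, Lcn2 and S100a8. Among all 32851 promoters of this length, 4477 (13.6%) held it. In Elane and Prtn3, which neighbour each other on chromosome 10, the match lay 85 and 95 bases before the start. The C/EBP-type core was present in 4 of 10 member promoters, those of Ltf, Ngp, Lcn2 and S100a9, and in 3547 (10.8%) of all promoters. Ngp held 2 matches. Lcn2 held a match to each core, and the window of Camp held neither.

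A gene is written below as higher or lower, or as having risen or fallen, where limma gave an adjusted p below 0.05 over all genes tested and a Log2FC of at least 2 in size. A gene is tested if enough libraries of any groups are above 1 CPM, so a member near 0 in 1 group is tested through the groups in which it is high, which largely fixes its direction. The first set holds 12 libraries of BM progenitors, BM monocytes, ER-Hoxb8 progenitors and ER-Hoxb8 day 4 cells, with 10 of 10 members among the 12056 genes tested. It addresses how like primary progenitors the ER-Hoxb8 progenitors were, and what the first days in M-CSF changed.

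Mpo, the heme enzyme that makes hypochlorous acid, was at 4873, 8699.5 and 10785 CPM in BM progenitor replicates 1 to 3, and at 4018, 4664 and 5171 CPM in BM monocytes. ER-Hoxb8 progenitors had 21.0, 6.77 and 2352 CPM of Mpo, and the day 4 cells had 10.4, 17.4 and 20.3 CPM. Of the 6 ER-Hoxb8 libraries, progenitor replicate 3 was the highest for Mpo, and it was below the lowest BM library. Elane, the neutrophil elastase, was at 1389.5, 4762 and 4566 CPM in BM progenitors and at 905, 1329 and 2689 CPM in BM monocytes. Its levels in ER-Hoxb8 progenitors were 10.3, 2.76 and 407 CPM, and those at day 4 were 3.84, 5.46 and 6.82 CPM. The ER-Hoxb8 progenitors again did not overlap BM progenitors, and replicate 2 was lowest.

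Prtn3, proteinase 3, and Ctsg, cathepsin G, are serine proteases of the same granules. Prtn3 was at 213, 719.9 and 809.7 CPM in BM progenitors and at 150.2, 4.37 and 1319 CPM in ER-Hoxb8 progenitors, so these groups overlapped and replicate 3 exceeded each BM progenitor library. In day 4 cells Prtn3 was at 2.27, 6.44 and 2.53 CPM, below replicates 1 and 3 of the progenitors, while the library labelled replicate 2 lay within the day 4 range. Ctsg was at 129, 282 and 395 CPM in BM progenitors, at 147, 1.40 and 361 CPM in ER-Hoxb8 progenitors, and at 1.33, 1.94 and 1.02 CPM in day 4 cells. BM monocytes held 279, 418 and 619 CPM of Prtn3 and 154, 188 and 300.1 CPM of Ctsg, inside or close to the range of BM progenitors.

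Among secondary granule genes, Ngp, a cathelicidin-like granule protein, was at 187, 6333 and 2082 CPM in BM progenitors and at 231, 5676 and 2119 CPM in BM monocytes. Replicate 1 was the lowest library of both groups. Against this, Ngp was at 4.68, 4.09 and 6.06 CPM in ER-Hoxb8 progenitors and at 4.04, 6.38 and 13.6 CPM in day 4 cells. The ER-Hoxb8 levels lay below every BM library. Camp, the cathelicidin, showed 38.4, 1209.9 and 706 CPM in BM progenitors and 2.25, 1.40 and 2.32 CPM in ER-Hoxb8 progenitors. Ltf, the iron-binding lactoferrin, ranged from 16.6 to 695 CPM in BM progenitors and from 0.338 to 1.41 CPM in ER-Hoxb8 progenitors. Lcn2, which binds bacterial siderophores, differed from these: it was at 2.45, 107 and 38.0 CPM in BM progenitors and at 511, 0.576 and 1.16 CPM in ER-Hoxb8 progenitors. A single library, ER-Hoxb8 progenitor replicate 1, was the highest of the set for Lcn2, while replicates 2 and 3 were below every BM progenitor library.

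S100a8 was at 32.9, 968 and 883 CPM in BM progenitors, at 104, 1140.5 and 814 CPM in BM monocytes, at 14.4, 30.8 and 2.10 CPM in ER-Hoxb8 progenitors and at 33.9, 43.6 and 29.7 CPM in day 4 cells. S100a9, its partner, was at 13.1, 482 and 287 CPM in BM progenitors and at 0.388, 0.350 and 0.472 CPM in ER-Hoxb8 progenitors, and the day 4 cells had 0.439, 0.939 and 1.16 CPM. BM progenitor replicate 1 was the lowest of its group for each of the 10 members.

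**Figure D1:**
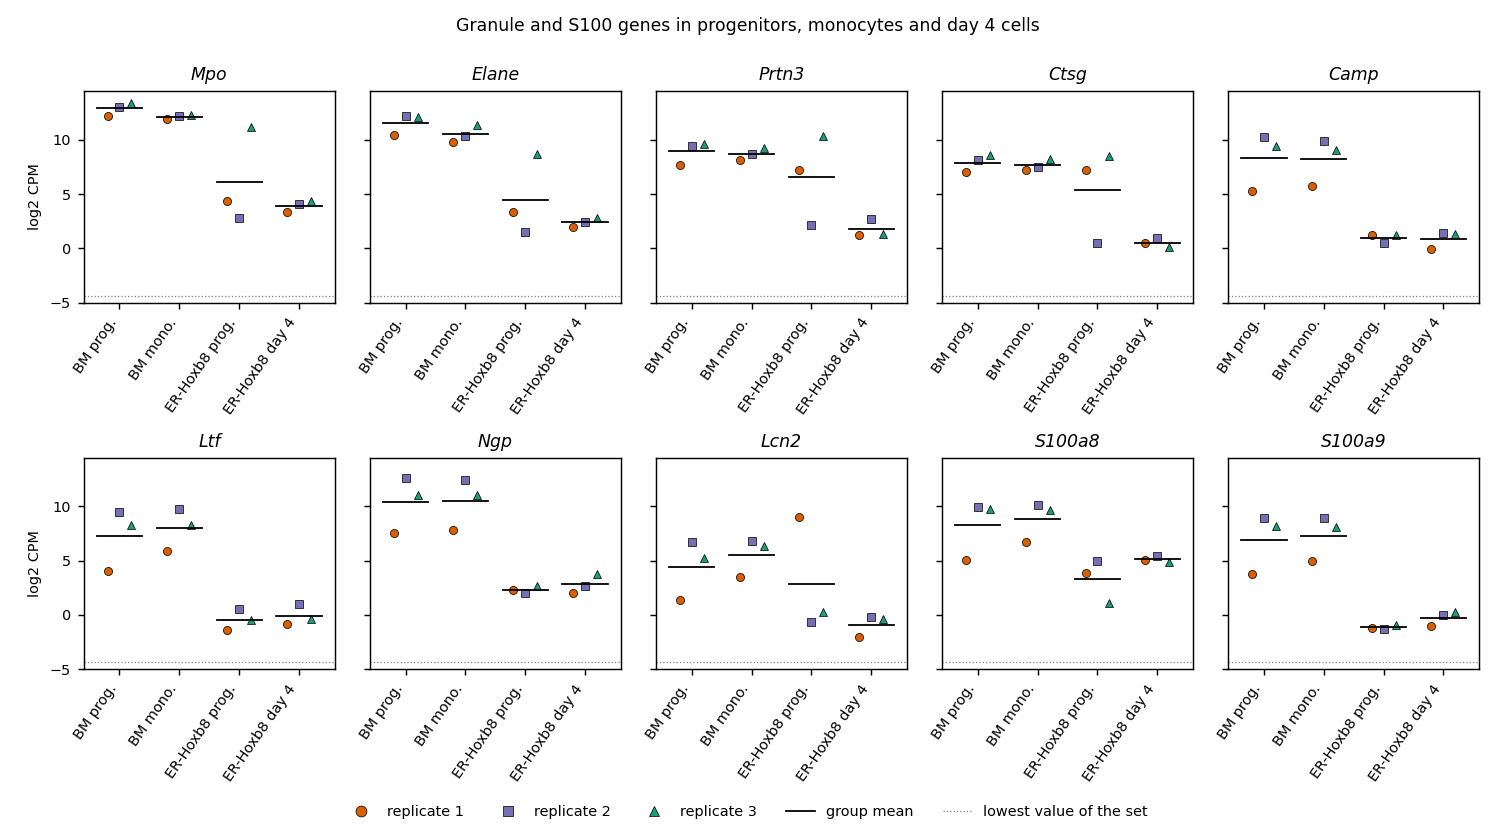
Each panel plots 1 member in log2 CPM for BM progenitors, BM monocytes, ER-Hoxb8 progenitors and ER-Hoxb8 day 4 cells; symbols are replicates 1 to 3, bars are group means, and the dotted line is the lowest value of the set. Ngp in ER-Hoxb8 progenitors sits at 4.09 to 6.06 CPM, below the BM progenitors at 187 to 6333 CPM, while Prtn3 and Ctsg spread over the range of the BM libraries.

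In ER-Hoxb8 progenitors against BM progenitors, 7 of 10 members were lower and none was higher, where 10.8% of the 12056 genes tested were lower. Ngp fell by 8.10 on the log2 scale (SE 1.25, limma adjusted p = 0.000632, n = 3 and 3) and S100a9 fell by 8.09 (SE 1.24, adjusted p = 0.000611). Ltf had a Log2FC of -7.69, Camp of -7.33, Elane of -7.10 (SE 1.36, adjusted p = 0.00267), Mpo of -6.79 (SE 1.56, adjusted p = 0.00777) and S100a8 of -4.95 (SE 1.34, adjusted p = 0.0184). These are the 7 members whose groups did not overlap, and 20.7% of genes tested lay wholly lower in the same way. Prtn3 (Log2FC -2.38, adjusted p = 0.280), Ctsg (-2.51, 0.254) and Lcn2 (-1.57, 0.648) did not pass. The median Log2FC was -6.94 over the members and -0.08 over all genes tested. Of the 1843 genes called, 29.6% were higher, and 41.3% were higher after quantile normalization.

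The count of 7 shifted with single libraries. It was 6, with S100a8 lost, without BM progenitor replicate 2 or replicate 3, and 5 when the 2 groups were fitted alone, with Mpo and S100a8 lost. Without ER-Hoxb8 progenitor replicate 1 it was 8, with Lcn2 gained, and without replicate 3 it was 9, with Prtn3 and Ctsg gained. Without the library labelled replicate 2 it was 7. In a bulk sample, fewer cells of a type and less RNA per cell cannot be told apart, and this holds for each result here.

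BM monocytes against the same BM progenitors gave 0 of 10 members by limma, where 6.84% of genes tested were called in either direction. At an unadjusted p below 0.05 there were 0 members and 30.3% of genes tested. The groups overlapped for each member, and the median Log2FC was -0.50 for the primary and 0.38 for the secondary granule genes. The replicates of both groups spread widely for several members, and whether this spread hid a difference was not tested. Markers of mature neutrophils, 9 genes (Ly6g, Cxcr2, Csf3r, Retnlg, Il1r2, Fpr1, Fpr2, Trem1 and Padi4), summed to 106, 528 and 193 CPM in BM progenitors and to 491, 1186.5 and 674 CPM in BM monocytes, with 9 of 9 above 3 counts in each library. In ER-Hoxb8 progenitors they summed to 81.5, 412.5 and 18.9 CPM, led by Trem1 in replicates 1 and 3 and by Csf3r in the library labelled replicate 2. Ly6g and Retnlg were among the 4 of 9 that were lower than in BM progenitors (Ly6g 4.07 and 0.0861 CPM on average, Retnlg Log2FC -7.84 and Padi4 -7.09), while 1 was higher. BM and ER-Hoxb8 progenitors also differed in other cell types: 4 basophil and eosinophil markers summed to 669 to 999 CPM in BM progenitors (most of all Mcpt8) and to 1.05 to 1.64 CPM in ER-Hoxb8 progenitors, 4 erythroid markers (led by Hba-a1) to 1405 to 3155.5 CPM and 1.36 to 2.90 CPM, and 4 lymphoid markers (led by Cd79a) to 103 to 505 CPM and 0.289 to 0.451 CPM. Macrophage markers (5 genes) went the other way, with 125 to 175 CPM in BM progenitors and 431 to 4035 CPM in ER-Hoxb8 progenitors. The part of all these cells in the differences of the granule genes was not tested.

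In ER-Hoxb8 day 4 cells against ER-Hoxb8 progenitors limma called 0 of 10 members and 0% of all genes, with 2 members and 1129 genes at an unadjusted p below 0.05. The 2 members were Ctsg, with a Log2FC of -4.89 (SE 1.51, adjusted p = 0.497), and Prtn3, with a Log2FC of -4.82 (SE 1.51, adjusted p = 0.497). Without the library labelled ER-Hoxb8 progenitor replicate 2, Ctsg and Prtn3 were lower at day 4 and 733 genes were called. The groups overlapped for each of the 10 members. The median Log2FC of the primary granule genes was -3.49 and that of the secondary granule genes 0.13.

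Other genes of secondary and tertiary granules, a list of 14, followed the same comparisons. In ER-Hoxb8 progenitors against BM progenitors 5 of the 13 tested were lower and 1 higher, with Pglyrp1, a peptidoglycan-binding protein, at a Log2FC of -6.83, Cd177 at -6.58 and Fcnb at -6.34. BM monocytes had 1 of 13 higher (Cyba, Log2FC 2.35), and the day 4 cells had 0 of 13. Among 5 progenitor markers, 4 were lower in ER-Hoxb8 progenitors than in BM progenitors, among them Gata2 (Log2FC -6.99), Cd34 (-5.83) and Kit (-5.51). Among 9 tested regulators of granulocyte and monocyte genes, 2 were lower, one of them Cebpe (Log2FC -3.44), the C/EBP factor of secondary granule genes.

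The second set holds 27 libraries of macrophages, MLCs and microglia, with 10 of 10 members among 12518 genes tested, and it addresses what the donor cells became in the brain. The 4 primary granule members were low in each group. A list of 5 other primary granule genes, led by Lyz2 or Ctsc, was not. It summed to 35577 to 64294 CPM in the macrophages, 7945 to 35032 CPM in MLCs and 832 to 3600 CPM in microglia. Mpo was at 16.6, 10.7 and 0 CPM in BMD macrophages, where the last library was at the floor, and at 23.8, 11.3 and 13.6 CPM in ER-Hoxb8 macrophages. BMD MLCs ranged from 1.75 to 62.8 CPM of Mpo with a median of 35.5 CPM, ER-Hoxb8 MLCs from 0.228 to 49.1 CPM with a median of 1.89 CPM, and microglia from 0.394 to 13.5 CPM with a median of 2.99 CPM. Elane had medians of 39.1 CPM in BMD MLCs, 1.43 CPM in ER-Hoxb8 MLCs and 2.28 CPM in microglia. Its highest library was ER-Hoxb8 MLC replicate 5 (WTHox), at 101 CPM. Prtn3 did not exceed 16.3 CPM and Ctsg did not exceed 20.7 CPM in this set, both in WTHox libraries, and Ctsg was at 0 in 4 of the 6 ER-Hoxb8 MLC libraries.

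Secondary granule genes ordered the groups differently. Ngp was at 7.41, 4.97 and 0.173 CPM in BMD macrophages and at 11.6, 6.22 and 5.86 CPM in ER-Hoxb8 macrophages. In BMD MLCs it ranged from 1832 to 15285 CPM with a median of 12267 CPM, in microglia from 161 to 2381 CPM with a median of 812 CPM, and in ER-Hoxb8 MLCs from 93.7 to 14866 CPM with a median of 616 CPM. By medians the order was BMD MLCs, microglia, ER-Hoxb8 MLCs and then the macrophages, and neighbours overlapped: BMD MLCs with microglia, microglia with ER-Hoxb8 MLCs, and the 2 groups of macrophages with each other. ER-Hoxb8 MLC replicates 1 to 3 (GFPHox) had 304, 93.7 and 133 CPM of Ngp, and replicates 4 to 6 (WTHox) had 6560.2, 14866 and 927 CPM. BMD MLC replicates 1 and 2 were the lowest of their group, at 3199 and 1832 CPM.

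Camp had the same order of group medians, at 4194 CPM in BMD MLCs, 317 CPM in microglia and 223 CPM in ER-Hoxb8 MLCs, and it did not exceed 0.936 CPM in BMD macrophages or 2.48 CPM in ER-Hoxb8 macrophages. Ltf had medians of 852, 105 and 57.1 CPM in BMD MLCs, microglia and ER-Hoxb8 MLCs. For Lcn2, ER-Hoxb8 MLCs had a median of 26.1 CPM and microglia of 20.5 CPM, so the order of these neighbours was turned, within overlapping ranges of 2.54 to 528 CPM and 8.17 to 46.8 CPM. BMD MLCs had 90.1 to 486 CPM of Lcn2 and did not overlap microglia.

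S100a8 was at 5.92, 3.02 and 2.51 CPM in BMD macrophages and at 21.1, 6.73 and 1.99 CPM in ER-Hoxb8 macrophages. Its medians were 6551 CPM in BMD MLCs (1202 to 9323), 784 CPM in ER-Hoxb8 MLCs (67.4 to 11947) and 502 CPM in microglia (70.7 to 1326). The GFPHox libraries had 218, 67.4 and 88.2 CPM and the WTHox libraries had 4927, 11947 and 1349.8 CPM. These 2 series did not overlap for S100a8, and the WTHox series lay above every microglia library. S100a9 was at 0.857, 0.584 and 0.0867 CPM in BMD macrophages, the last at the floor, and had medians of 4087 CPM in BMD MLCs, 372 CPM in ER-Hoxb8 MLCs and 255 CPM in microglia.

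**Figure D2:**
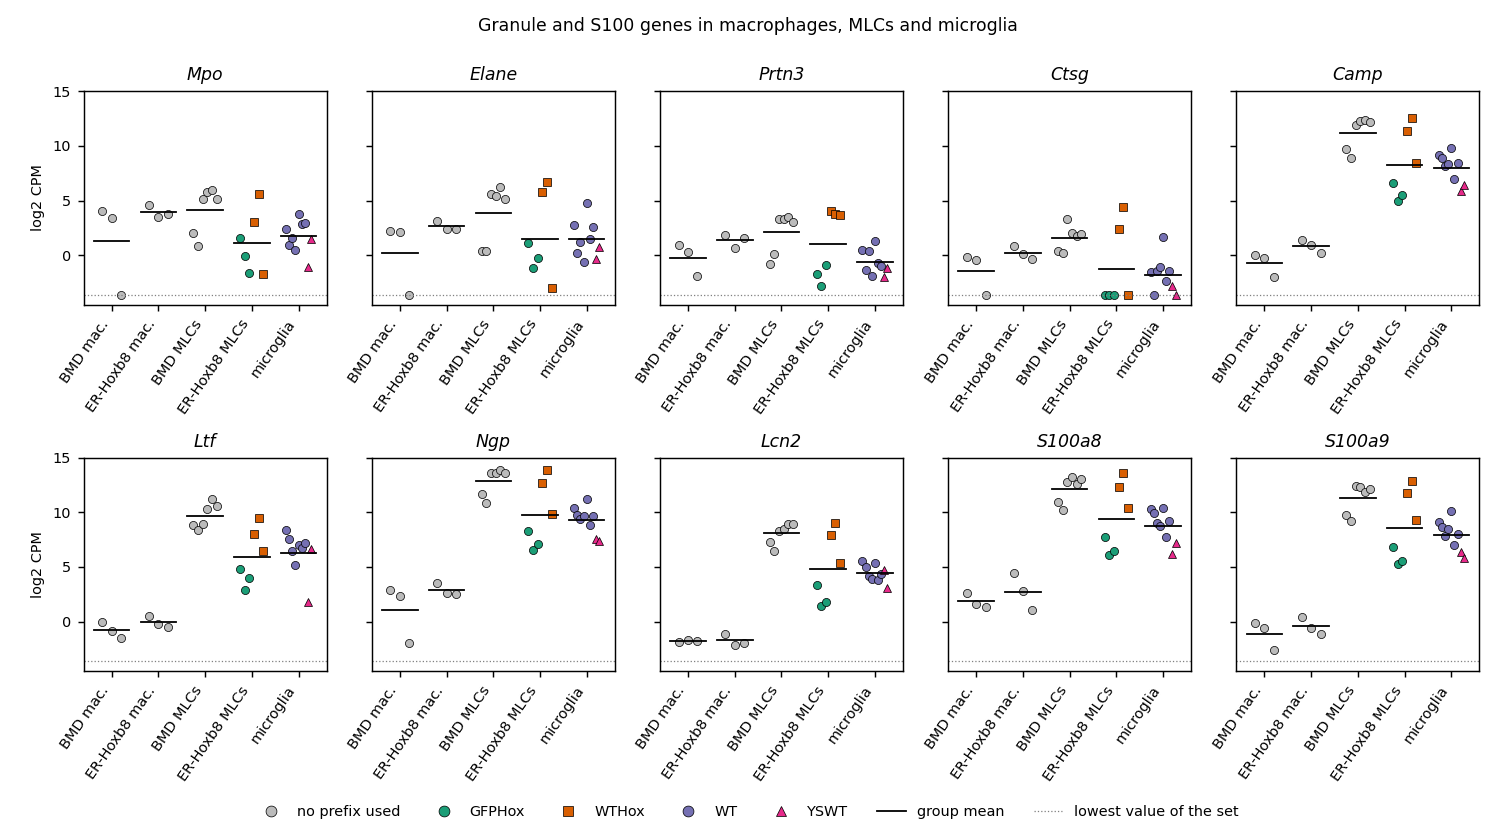
Each panel plots 1 member in log2 CPM for BMD macrophages, ER-Hoxb8 macrophages, BMD MLCs, ER-Hoxb8 MLCs and microglia; points are libraries, with GFPHox as circles and WTHox as squares, and triangles for the YSWT microglia. Ngp in BMD MLCs sits at 1832 to 15285 CPM, above both groups of macrophages at 0.173 to 11.6 CPM, and in that panel the WTHox squares sit above the GFPHox circles.

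BMD MLCs against BMD macrophages had 6 of 10 members higher, where 9.67% of the 12518 genes tested were higher. They were the 4 secondary granule genes and both S100 genes. S100a9 and Camp were below 1 CPM in each BMD macrophage library. Of these 2 groups they passed the filter through the MLCs, in which they were high, and this largely fixes their direction. S100a9 was at the floor in BMD macrophage replicate 3, so its size depends in part on the floor. S100a9 had a Log2FC of 12.34 (SE 1.26, limma adjusted p = 1.03e-07, n = 6 and 3), Camp of 11.94 (SE 1.22, 1.05e-07), Ngp of 11.77 (SE 1.25, 1.62e-07), Ltf of 10.50, S100a8 of 10.26 and Lcn2 of 9.82 (SE 1.11, 4.16e-07), and the groups did not overlap for these, with 20.8% of genes tested wholly higher. The 4 primary granule genes did not pass: Elane had a Log2FC of 3.64 (adjusted p = 0.120), Ctsg of 3.02 (0.113), Mpo of 2.87 (0.158) and Prtn3 of 2.31 (0.183). Ctsg did not overlap between the groups, and it was called when the 2 groups were fitted alone. With only the GFPHox libraries of ER-Hoxb8 MLCs in the fit, 8 members were higher, where 10.1% of genes tested were higher. The members' median Log2FC was 10.04, against -0.01 over all genes tested.

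ER-Hoxb8 MLCs against ER-Hoxb8 macrophages also had 6 of 10 members higher, the 4 secondary granule genes and both S100 genes, where 9.55% of genes tested were higher. S100a9 had a Log2FC of 9.02 (SE 1.26, limma adjusted p = 6.12e-06, n = 6 and 3), Camp of 7.39 (SE 1.22, 5.47e-05), Ngp of 6.78 (SE 1.25, 0.000197), S100a8 of 6.68, Lcn2 of 6.53 and Ltf of 6.00, and each of the 6 ER-Hoxb8 MLC libraries lay above each macrophage library for them, as for 14.4% of genes tested. The primary granule genes had a median Log2FC of -1.29 and none passed. With the GFPHox libraries alone, Prtn3 and Ctsg were lower, where 6.60% of the genes tested were lower, beside the 6 members that were higher.

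BMD MLCs against microglia, a comparison that shares the BMD MLCs with the one above, had 8 of 10 members higher, where 6.61% of genes tested were higher. Lcn2 had a Log2FC of 3.62 (SE 0.83, limma adjusted p = 0.00193, n = 6 and 9), Ngp of 3.53 (SE 0.93, 0.00678), S100a8 of 3.40 (SE 0.93, 0.00861) and Ltf of 3.39 (SE 0.86, 0.00507). S100a9 had a Log2FC of 3.33 and Camp of 3.21. The groups did not overlap for Ltf and Lcn2 (11.4% of genes tested did not) and overlapped for the others. Ctsg (Log2FC 3.42, SE 1.08, adjusted p = 0.0232) and Prtn3 (2.74, SE 0.98, 0.0466) rested on few libraries: both were lost, leaving 6, without BMD MLC replicate 3, without the YSWT microglia or with a pseudocount of 1. Prtn3 was also lost, leaving 7, without any one of BMD MLC replicates 4, 5 and 6, microglia replicates 2, 4, 6, 7, 8 and 9, BMD macrophage replicates 1 and 2 or ER-Hoxb8 macrophage replicates 1, 2 and 3. Mpo (Log2FC 2.44, adjusted p = 0.146) and Elane (2.43, 0.222) did not pass. The members' median Log2FC was 3.36 and that of all genes 0.06.

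ER-Hoxb8 MLCs against the same microglia had 0 of 10 members called by limma, where 16.3% of genes tested were called in either direction. At an unadjusted p below 0.05 there were 0 members and 42.6% of genes tested. Log2FC lay between -0.58 and 1.68, and the groups overlapped for each member. The 0 joined 2 unlike series. With the GFPHox libraries alone, Camp, Ltf and Lcn2 were lower than in microglia, where 7.50% of the genes tested were lower. With the WTHox libraries alone 6 members were higher (Prtn3, Camp, Ngp, Lcn2, S100a8 and S100a9), where 8.21% were higher, so the direction of Camp and Lcn2 turned with the series (Log2FC -2.32 and 2.77 for Camp, -2.26 and 3.02 for Lcn2). Without ER-Hoxb8 MLC replicate 2, Prtn3 alone was higher.

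In ER-Hoxb8 MLCs against BMD MLCs, 4 of 10 members were lower, where 4.44% of genes tested were lower, and they were the 4 secondary granule genes. Ltf had a Log2FC of -3.77 (SE 0.95, limma adjusted p = 0.00753, n = 6 and 6), Lcn2 of -3.24 (SE 0.90, 0.0154), Ngp of -3.15 (SE 1.02, 0.0371) and Camp of -2.99 (SE 1.00, 0.0428). S100a8 had a Log2FC of -2.70 (adjusted p = 0.0728) and S100a9 of -2.66 (0.0833), short of the test, and the groups overlapped for each member. Camp and Ngp were lost, leaving 2, without any one of BMD MLC replicates 3, 4, 5 and 6 or ER-Hoxb8 MLC replicates 1, 2, 3 and 6. Without ER-Hoxb8 MLC replicate 4 the count was 7 and without replicate 5 it was 8. It was 7 with a replicate block, 2 with no filter and 1, Ltf, with the 2 groups fitted alone. The GFPHox libraries alone gave 9 lower members, where 4.62% of the genes tested were lower, and the WTHox libraries alone 0, where 9.42% were called in either direction. What sets the 2 series apart is not explained in the labels, where the WTHox names also end in Lo and the GFPHox names do not.

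Between ER-Hoxb8 and BMD macrophages grown in dishes, limma called 0 of 10 members, where 1.85% of genes tested were called. At an unadjusted p below 0.05 there were 0 members and 8.56% of genes tested. Elane (8.70, 5.24 and 5.10 CPM against 4.51, 4.29 and 0 CPM) and Camp (2.48, 1.79 and 1.10 CPM against 0.936, 0.774 and 0.173 CPM) did not overlap between these groups, nor did 19.8% of genes tested, a share like 2 of 10. BMD macrophage replicate 3 was the lowest library of the 2 groups for 8 of 10 members, all but Lcn2 and S100a8, with Mpo, Elane, Ctsg and S100a9 at the floor.

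Markers of mature neutrophils, and of other cells, differed between these groups as well. Their sum over 9 genes was 124, 165 and 45.6 CPM in BMD macrophages, with Ly6g at or below 3 counts in each library, and 183, 405 and 159 CPM in ER-Hoxb8 macrophages. BMD MLCs had 1088, 711, 3785, 2029, 2012 and 2767 CPM, with 9 of 9 genes above 3 counts and Retnlg the most abundant. The GFPHox libraries had 222, 151 and 211 CPM with Csf3r the most abundant, and the WTHox libraries had 3337, 4289 and 1701 CPM, led by Retnlg in replicates 4 and 5 and by Cxcr2 in replicate 6. Microglia ranged from 87.0 to 766 CPM with a median of 490.2 CPM and 7 to 9 genes above 3 counts, and Csf3r was the most abundant in 7 of 9 libraries. By the test, 7 of 9 were higher in BMD MLCs than in BMD macrophages (Retnlg Log2FC 12.04, Padi4 8.50, Cxcr2 7.48), 6 of 9 in ER-Hoxb8 MLCs than in ER-Hoxb8 macrophages (Retnlg 8.63, Il1r2 6.13, Cxcr2 5.18), and 7 of 9 in BMD MLCs than in microglia (Padi4 4.52, Trem1 4.06, Cxcr2 3.55). Against microglia, ER-Hoxb8 MLCs had 3 of 9 higher, and against BMD MLCs 1 of 9 lower. The GFPHox and WTHox series differed in other markers too. Basophil and eosinophil markers (4 genes, led by Prg2) summed to 37.0, 10.9 and 10.9 CPM in the GFPHox libraries and to 559.9, 3602 and 359.6 CPM in the WTHox libraries. Macrophage markers (5 genes, led by Csf1r or Cd68) summed to 5749, 4007 and 3233 CPM in the GFPHox libraries and to 2198, 1568 and 2108 CPM in the WTHox libraries. Erythroid markers (4 genes, led by Hba-a1 or Hbb-bs) summed to 0.177 to 5.72 CPM in the macrophages, 14.9 to 575.5 CPM in BMD MLCs, 151 to 4749 CPM in ER-Hoxb8 MLCs and 202 to 4589 CPM in microglia. They were highest in ER-Hoxb8 MLC replicate 5 and microglia replicate 5, which were also the highest of their groups for Ngp. Monocyte markers (4 genes) summed to 38.9 to 1134 CPM in BMD macrophages, 455 to 1442 CPM in BMD MLCs and 17.1 to 107 CPM in microglia. The part of other cells in the levels of granule genes was not tested.

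**Figure D3:**
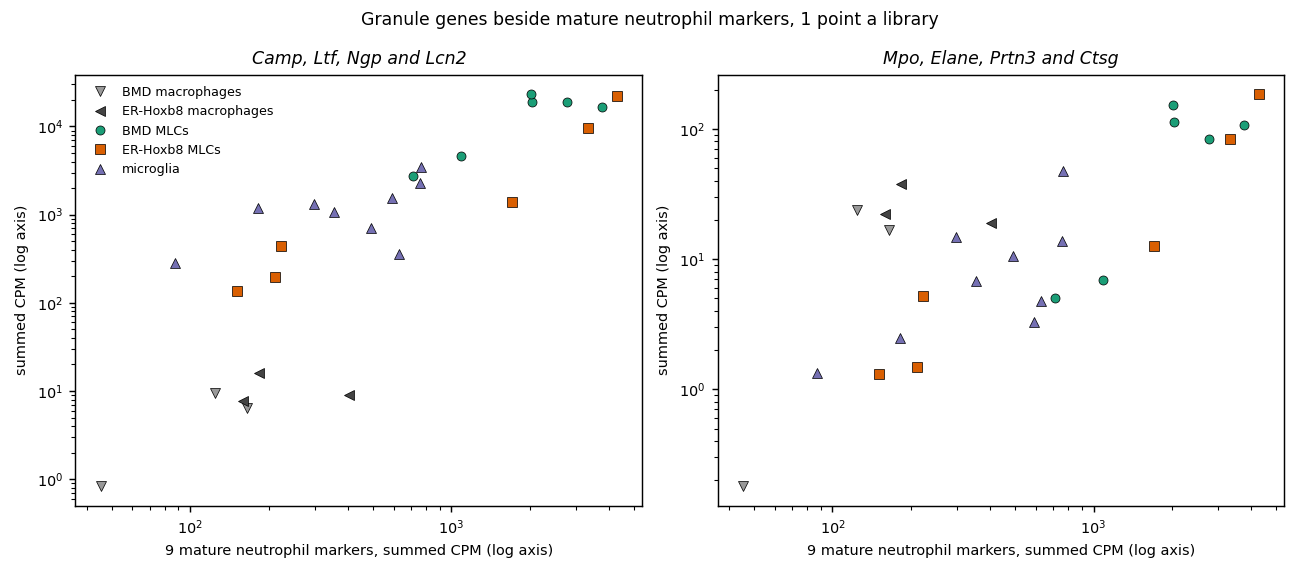
Each point is 1 library of macrophages, MLCs or microglia, on log axes; x is the summed CPM of the 9 mature neutrophil markers and y the summed CPM of Camp, Ltf, Ngp and Lcn2 (left) or of Mpo, Elane, Prtn3 and Ctsg (right). Summed secondary granule genes run from 134 to 21961 CPM in ER-Hoxb8 MLCs and from 2732 to 23290 CPM in BMD MLCs.

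Other secondary and tertiary granule genes were higher for 9 of 13 tested, and lower for 1, in BMD MLCs against BMD macrophages (Chil3 Log2FC 10.40, Pglyrp1 10.37). In ER-Hoxb8 MLCs against ER-Hoxb8 macrophages 6 were higher and 1 lower (Pglyrp1 6.74). Against microglia, BMD MLCs had 12 of 13 higher (Cybb 4.81, Itgb2l 4.80, Chil3 4.77) and ER-Hoxb8 MLCs 2 (Cybb 4.94, Adam8 3.72); Cybb codes for the oxidase subunit of phagocytes and is not limited to neutrophils. ER-Hoxb8 MLCs had 3 lower than BMD MLCs, among them Cd177 (-4.26). Of 8 regulators tested, 4 were higher in BMD MLCs than in BMD macrophages, among them Cebpe (6.56), Klf4 (3.37) and Cebpd (2.53).

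Genes whose pattern was most like a member are given by Pearson's r of log2 CPM, as a description over libraries that share groups. Over the 12 libraries of progenitors and monocytes, Mpo was most like Elane (r = 0.994) among the members, and outside them most like Hist1h2bj and Flt3 (both 0.982), Scnn1a (0.979), Sf3b1 and Prss57 (both 0.975). Ngp was most like S100a9 (0.996) and Camp (0.994), and outside the members most like Itgb2l (0.991), Retnlg (0.987), Stk39 (0.985), Cd3d (0.981) and Slco4c1 (0.979). Mpo with Ngp gave 0.845. Outside the members S100a8 was most like Btnl2 (0.944), Kmt2d (0.923), Pxt1 (0.917), Tex15 (0.913) and Nipbl (0.911).

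Over the 27 libraries of macrophages, MLCs and microglia the primary and secondary genes parted further: Mpo with Elane gave 0.918 and Mpo with Ngp 0.405. Outside the members Mpo was most like Ms4a3 (0.888), a marker of granulocyte and monocyte progenitors, then Gpr97 (0.731), Mmp9 (0.717), Fmo5 (0.712) and Igf1r (0.686). Ngp was most like Camp (0.992) among the members and outside them most like Retnlg (0.983), Pglyrp1 (0.977), Wfdc21 (0.977), Mrgpra2a and Mrgpra2b (both 0.950). For S100a8 the leading genes outside the members were Pglyrp1 (0.984), Wfdc21 (0.978), Retnlg (0.976), Crispld2 (0.964) and Fam101b (0.960).

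For the Adar1 comparisons the targeted gene comes first. Adar was at 18.3, 10.6 and 19.3 CPM in NTC progenitors and at 20.5, 18.7 and 18.8 CPM in progenitors labelled Adar1 KO 1, with a Log2FC of 0.31 (limma adjusted p = 0.924). In macrophages it was at 53.0 and 50.7 CPM for NTC and at 124, 142 and 128 CPM for Adar1 KO 1, a difference that passed the adjusted p but not the Log2FC limit (Log2FC 1.34, SE 0.21, adjusted p = 0.000976). In these progenitors and macrophages Adar RNA was thus not lower with the Adar1 KO label, and a guide can disrupt a protein without lowering its RNA, so the RNA does not check the label. For guide 2, Adar was at 20.3, 23.5 and 20.4 CPM in progenitors and between 127 and 131 CPM in macrophages.

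In NTC cells, Mpo was at 24266, 18117 and 15998 CPM in progenitors, and at 0.222 and 0.0390 CPM in macrophage replicates 1 and 3, the last at the floor. Adar1 KO 1 progenitors had 17472, 11752 and 11563 CPM of Mpo and Adar1 KO 1 macrophages had 0.202, 0.127 and 0.203 CPM. Guide 2 progenitors had 2405, 2124 and 2609.9 CPM and their macrophages 4.44, 3.83, 3.35, 3.36 and 4.75 CPM. Progenitors and macrophages were far apart in each of these 3 series. Prtn3 in NTC cells was at 1805, 2147 and 2029.5 CPM in progenitors and at 0.644 and 0.263 CPM in macrophages, and in Adar1 KO 1 cells at 1694, 2042 and 1769.9 CPM and at 2.62, 2.11 and 1.75 CPM. Ctsg was at 1738, 1923 and 1611 CPM in NTC progenitors and at 1240.2, 1229 and 1071 CPM in Adar1 KO 1 progenitors, which did not overlap, and at or below 3 counts in both NTC macrophage libraries. Elane was at 785, 856 and 719 CPM in NTC progenitors and at 570.0, 537 and 473 CPM in Adar1 KO 1 progenitors.

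The secondary granule genes were low in the progenitors and near the floor in the NTC macrophages. Camp was at 8.15, 21.8 and 16.1 CPM in NTC progenitors, at 7.28, 10.7 and 7.83 CPM in Adar1 KO 1 progenitors, at 0.424 and 0.149 CPM in NTC macrophages and at 2.79, 0.850 and 0.537 CPM in Adar1 KO 1 macrophages. Lcn2 was at 3.08, 3.84 and 4.69 CPM in NTC progenitors and 3.32, 4.03 and 2.58 CPM in Adar1 KO 1 progenitors. In macrophages it was at 0.172 and 0.262 CPM for NTC and at 7.15, 3.78 and 1.01 CPM for Adar1 KO 1, which did not overlap. Ngp was at 12.6, 26.5 and 21.2 CPM in NTC progenitors and at 0 in the NTC macrophages, and Ltf did not exceed 11.2 CPM in any of these libraries.

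S100a8 and S100a9 parted in the macrophages. S100a8 was at 77.8, 107 and 94.3 CPM in NTC progenitors, at 14.8 and 10.5 CPM in NTC macrophages, at 90.4, 106 and 86.6 CPM in Adar1 KO 1 progenitors and at 65.5, 80.4 and 79.7 CPM in Adar1 KO 1 macrophages. S100a9 was at 9.82, 24.6 and 24.6 CPM in NTC progenitors and at 9.74, 13.3 and 11.3 CPM in Adar1 KO 1 progenitors, and at or below 3 counts in the macrophages of both. NTC macrophage replicate 2, in its own set, had 5.29 CPM of S100a8 and 0 of S100a9.

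**Figure D4:**
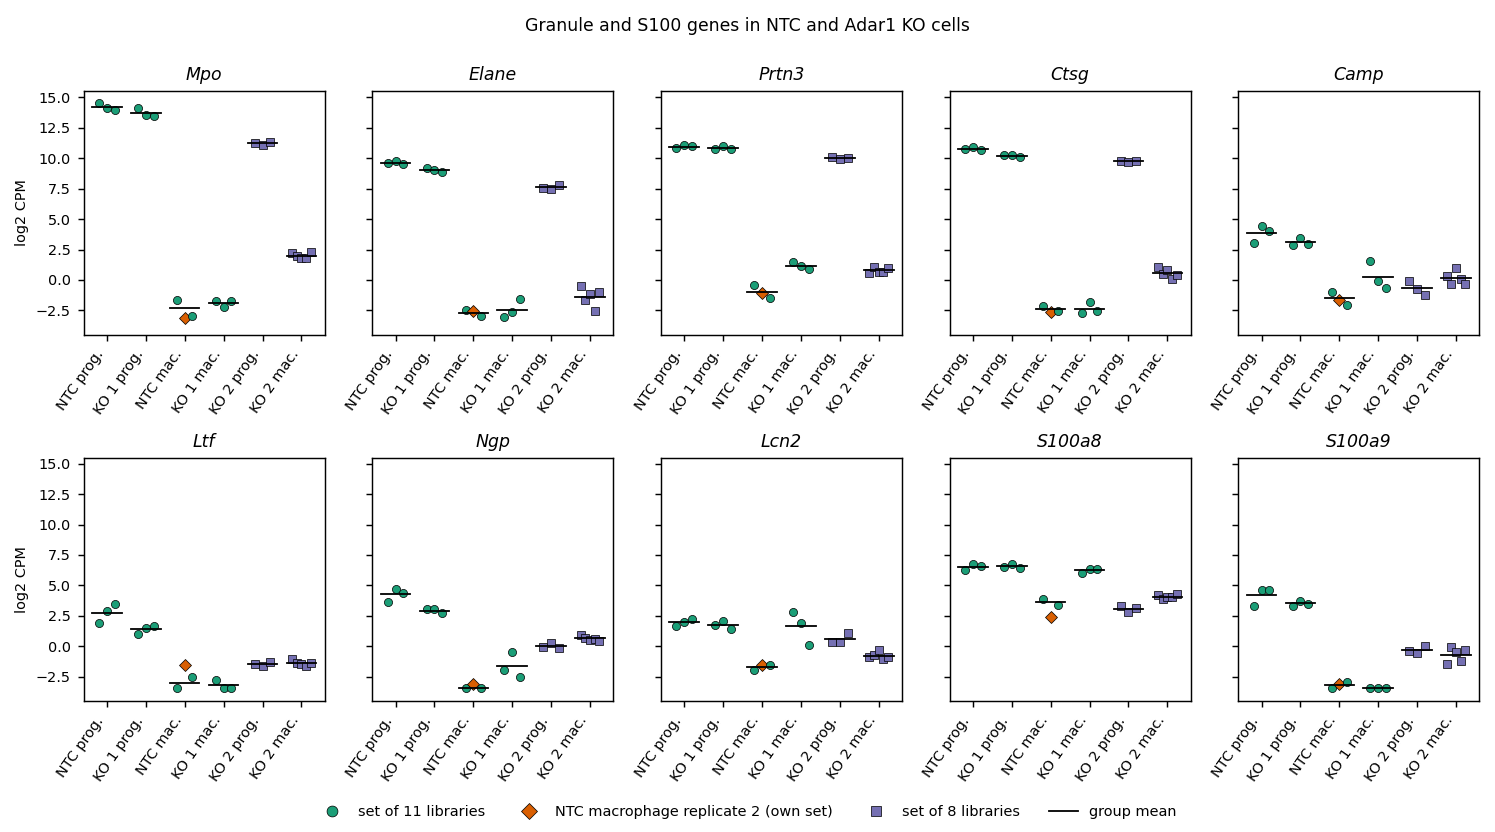
Each panel plots 1 member in log2 CPM for progenitors and macrophages of NTC, Adar1 KO 1 and Adar1 KO 2 cells; points are libraries, bars are group means, and the orange diamond is NTC macrophage replicate 2, which was normalized alone and is in no mean. S100a8 sits at 65.5 to 80.4 CPM in Adar1 KO 1 macrophages, above the NTC macrophages at 10.5 and 14.8 CPM.

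NTC macrophages against NTC progenitors had 10 of 10 members lower, where 12.6% of the 11008 genes tested were lower, and the groups did not overlap for any member or for 79.3% of genes tested. All but S100a8 were below 1 CPM in the NTC macrophages and so, of these 2 groups, passed the filter through the progenitors, in which they were high. This largely fixes their direction, and the count of 10 says little beyond the levels. Mpo fell by 16.52 on the log2 scale (SE 0.33, limma adjusted p = 1.53e-11, n = 2 and 3) and Prtn3 by a Log2FC of -11.92 (SE 0.26, 2.46e-11). With 1 of the 2 macrophage libraries at the floor, the size for Mpo depends on the floor. Where both macrophage libraries were at the floor, levels are bounds: Ctsg was at least 8002-fold lower, Elane at least 3584-fold, Ngp at least 88.2-fold, S100a9 at least 83.1-fold and Ltf at least 31.0-fold. Camp had a Log2FC of -5.34 (SE 0.60, adjusted p = 9.23e-06), Lcn2 of -3.67 (SE 0.60, 0.000193) and S100a8 of -2.88 (SE 0.18, 6.39e-08). The median Log2FC over the members was -7.54 as fitted and -6.42 with members at the floor set to their bound, against -0.08 over all genes. Lcn2 was lost, leaving 9, with a pseudocount of 1. Other markers differed as well: macrophage markers summed to 287, 259.8 and 210.4 CPM in NTC progenitors and to 8799 and 7829 CPM in NTC macrophages. Erythroid markers, led by Hbb-bs, summed to 629, 502 and 389 CPM in NTC progenitors, 507 to 629 CPM in Adar1 KO 1 progenitors, 0 and 0.0327 CPM in NTC macrophages and 0.394 to 0.878 CPM in guide 2 progenitors. NTC macrophage replicate 2, in its own set, had 269 CPM of them. Mature neutrophil markers summed to 20.8 to 37.0 CPM in NTC and Adar1 KO 1 progenitors and to 409 to 585 CPM in their macrophages. In these macrophages Csf3r or Trem1 led, and Retnlg and Padi4 were at or below 3 counts in each library. The part of other cells was not tested.

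In Adar1 KO 1 cells, 8 of 10 members were lower in macrophages than in progenitors, where 10.0% of genes tested were lower. Among the primary granule genes Mpo had a Log2FC of -15.60 (SE 0.29, limma adjusted p = 1.04e-11, n = 3 and 3), Ctsg of -12.55, Elane of -11.46 and Prtn3 of -9.68. For Ctsg and Elane 2 of the 3 macrophage libraries were at or below 3 counts, so these 2 sizes depend on the floor. Ngp had -4.59 (SE 0.46, 3.15e-06) and Camp -2.84 (SE 0.54, 0.000547), while S100a9 was at least 58.3-fold and Ltf at least 13.4-fold lower. Lcn2 (Log2FC -0.10, adjusted p = 0.880) and S100a8 (-0.33, 0.0882) did not pass. Ltf was lost, leaving 7, with a pseudocount of 1. The members' median Log2FC was -5.77, or -5.23 with bounds, against -0.06 over all genes.

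Guide 2 cells had 7 of 10 members above the filter, and Camp, Ltf and S100a9 were too low to be tested, the highest among them being Camp at 1.88 CPM. Of the 7, the 4 primary granule genes were lower in macrophages, where 7.61% of the 10698 genes tested were lower. Prtn3 had a Log2FC of -9.22 (SE 0.13, limma adjusted p = 1.67e-12, n = 5 and 3), Mpo of -9.21 (SE 0.13, 1.49e-12), Ctsg of -9.17 (SE 0.19, 2.38e-11) and Elane of -8.98 (SE 0.39, 5.65e-09). Elane passed the filter through the 3 progenitor libraries alone, so without any one of them it fell below the filter and was not tested, leaving 3. Past the adjusted p but short of the Log2FC limit, S100a8 had 1.01 (SE 0.13, 4.39e-05), Ngp 0.60 (0.0242) and Lcn2 -1.38 (0.00103), and the groups did not overlap for these or for 77.5% of genes tested. S100a8 was at 9.66, 7.12 and 8.53 CPM in progenitors and at 18.3, 14.7, 16.1, 16.2 and 19.8 CPM in macrophages of guide 2. Other markers differed between guide 2 progenitors and macrophages as well. Monocyte markers summed to 1098.5 to 1185 CPM and 163 to 202 CPM, and macrophage markers to 337 to 345 CPM and 4501 to 4809 CPM. Mature neutrophil markers summed to 13.4 to 15.9 CPM in progenitors and to 202 to 235 CPM in macrophages. Trem1 led these sums, at 103.5 to 121 CPM in the macrophages, and Ly6g and Padi4 were at or below 3 counts in each guide 2 library. The part of other cells was not tested. This set holds no NTC library, so guide 2 cannot be compared with NTC.

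Between Adar1 KO 1 and NTC progenitors limma called 0 of 10 members, where 0.254% of genes tested were called. Ctsg, Ltf and Ngp were at an unadjusted p below 0.05, with a Log2FC of -0.57 (adjusted p = 0.571), -1.37 (0.394) and -1.34 (0.446), and 725 genes were below it. Elane, Ctsg, Ltf and Ngp did not overlap between the groups, with the Adar1 KO 1 libraries lower, as for 704 of the 11008 genes tested. Within pairs of equal replicate number, Mpo, Prtn3, Camp and S100a9 also lay below NTC in each pair, while Lcn2 and S100a8 did not. The share of all genes doing so was not counted, and a block for the replicate left the member count unchanged.

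In macrophages, 3 of 10 members were higher in Adar1 KO 1 than in NTC, where 3.24% of genes tested were higher, and these groups are shared with the comparisons to progenitors above. S100a8 had a Log2FC of 2.58 (SE 0.18, limma adjusted p = 2.23e-06, n = 3 and 2), Lcn2 of 3.36 (SE 0.60, 0.00233) and Prtn3 of 2.12 (SE 0.26, 0.000124), and none of the 3 overlapped, nor did 52.6% of genes tested. In the separate baricitinib set at 0 uM, Lcn2 was also higher in Adar1 KO. It passed the filter there through Adar1 KO libraries alone, with NTC at the floor, which largely fixes its direction. That call was lost with a pseudocount of 1 and with the groups fitted alone. Prtn3 was below the filter in that set and was not tested. It was at 0.289, 0.696 and 0.339 CPM in Adar1 KO and at 0.379 CPM in NTC replicate 3, so the groups overlapped. The direction of S100a8 did not repeat in that set. There S100a8 was at 53.2 to 66.0 CPM in Adar1 KO and at 74.7 to 95.2 CPM in NTC (Log2FC -0.45, not called). Camp (Log2FC 1.76, SE 0.60, adjusted p = 0.0590) did not pass, and Ngp was at least 1.45-fold higher with an adjusted p of 0.0307, not past the Log2FC limit. Elane, Ctsg, Ltf and S100a9 were at or below 3 counts in the NTC macrophages. The median Log2FC of the members was 1.08, or 0.47 with bounds, and the median over all genes was 0.05, or -0.06 after quantile normalization. Prtn3 was lost, leaving 2, without Adar1 KO 1 macrophage replicate 1, without NTC macrophage replicate 3 (which leaves 1 NTC library, so that the spread comes from the other groups) and after quantile normalization, and S100a8 alone was called with a pseudocount of 1. Without Adar1 KO 1 macrophage replicate 3 the count was 5, with Camp and Ngp gained.

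Mature neutrophil markers summed to 521 and 453 CPM in NTC macrophages and to 585, 431 and 409 CPM in Adar1 KO 1 macrophages, with Csf3r the most abundant, except in Adar1 KO 1 replicate 3, which was led by Trem1. Retnlg and Padi4 were at or below 3 counts in each library. Of 6 of them tested, 2 were higher in Adar1 KO 1 macrophages, among them Fpr2 (Log2FC 3.04). Macrophage markers summed to 8799 and 7829 CPM in NTC and to 4938, 5529 and 5286 CPM in Adar1 KO 1 macrophages, and monocyte markers to 1857 and 1488 CPM, led by F13a1, and to 1422.5, 1038 and 621 CPM, led by Ly6c2. Neither sum overlapped between the groups, and their part in the levels of members was not tested. Of 11 other secondary and tertiary granule genes tested, Chil3 was higher (3.06) and Cd177 lower (-2.58). Of 7 other S100 genes and receptors tested, 3 were higher and 0 lower in NTC macrophages than in NTC progenitors, S100a4 (7.06), S100a6 (5.88) and S100a10 (2.01), the opposite direction to S100a8 and S100a9. In the same comparison 1 of 3 granule protease inhibitors tested was lower and 0 higher: Serpinb1a (-10.42), an inhibitor of neutrophil serine proteases. Other primary granule genes, a list of 5, summed to 2109 to 3017 CPM in NTC progenitors, led by Srgn. In NTC macrophages they summed to 78802 and 63760 CPM, led by Lyz2.

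Among the baricitinib libraries 3 members, Camp, Lcn2 and S100a8, were above the filter. For Camp and Lcn2 only libraries of Adar1 KO were above 1 CPM, so these 2 genes passed the filter through the cells in which they were high, and their tests rest on that. Elane and S100a9 were at or below 3 counts in each of the 33 libraries, and Mpo, Ctsg, Ltf and Ngp did not exceed 0.563 CPM. Prtn3 did not exceed 0.924 CPM. Adar was at 34.6, 30.6 and 25.7 CPM in NTC and at 171, 91.4 and 82.7 CPM in Adar1 KO at 0 uM, a Log2FC of 1.85 (SE 0.48, limma adjusted p = 0.0051). At 10 uM it was at 12.8, 12.3 and 9.16 CPM in NTC and at 2.79, 4.31, 7.38 and 3.93 CPM in Adar1 KO, and in Adar1 KO it was lower than at 0 uM (Log2FC -4.61, SE 0.45, adjusted p = 8.68e-10). At this dose each Adar1 KO library lay below each NTC library for Adar, a difference that was not tested.

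Lcn2 was at 0, 0 and 0.0735 CPM in NTC at 0 uM, each at the floor, and at 1.30, 0.780 and 1.42 CPM in Adar1 KO at 0 uM. At 10 uM it was at 0.854, 0.159 and 0.358 CPM in NTC, with replicate 2 at the floor, and at 0.262, 0.366, 0.128 and 0.146 CPM in Adar1 KO, with replicate 2 alone above the floor. NTC and Adar1 KO did not overlap at 0 uM and overlapped at 10 uM. Camp was at 0.188, 0.132 and 0.186 CPM in NTC, the first 2 at the floor, and at 1.25, 1.18 and 0.646 CPM in Adar1 KO at 0 uM, and at 10 uM it was at 0 in NTC and at 0.620, 0.324, 0.321 and 0.368 CPM in Adar1 KO. S100a8 was at 95.2, 74.7 and 78.9 CPM in NTC at 0 uM, and at 50.7, 25.2 and 87.0 CPM at 10 uM. Adar1 KO had 63.1, 66.0 and 53.2 CPM of S100a8 at 0 uM and 146, 86.7, 69.1 and 100.1 CPM at 10 uM.

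At doses between these, which were not tested, S100a8 in Adar1 KO was at 60.0, 55.6 and 68.4 CPM at 0.0006 uM, at 61.1, 52.1 and 59.0 CPM at 0.016 uM and at 244, 72.2 and 324 CPM at 0.4 uM. In NTC it was at 99.95, 37.5 and 49.8 CPM at 0.0006 uM, at 69.2, 46.1, 55.9 and 78.8 CPM at 0.016 uM and at 59.5, 53.5, 52.8 and 94.0 CPM at 0.4 uM. The 0.4 uM libraries of Adar1 KO were thus the highest for S100a8, apart from replicate 2. That replicate stood apart for other genes as well, with 166 CPM of Adar against 17.3 and 18.4 CPM, 3.88 CPM of Camp against 0.643 and 0.538 CPM, and 2.65 CPM of Lcn2 against 0.544 and 0.294 CPM.

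**Figure D5:**
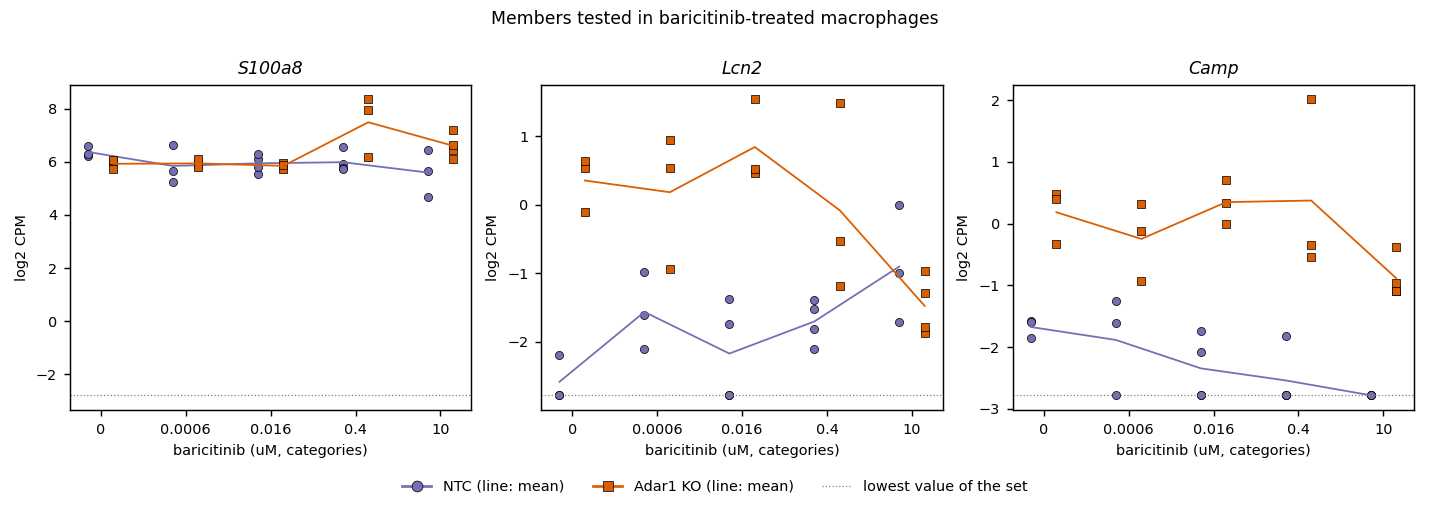
Panels plot S100a8, Lcn2 and Camp in log2 CPM by labelled baricitinib dose as a category, for NTC and Adar1 KO macrophages; points are libraries and lines join group means. S100a8 in Adar1 KO reaches 244 and 324 CPM at 0.4 uM, and Lcn2 in Adar1 KO sits between 0.128 and 0.366 CPM at 10 uM.

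Adar1 KO against NTC at 0 uM had 1 of 3 tested members higher, where 1.92% of the 11152 genes tested were higher. This was Lcn2, at least 3.50-fold higher, with a fitted Log2FC of 2.94 (SE 0.59, limma adjusted p = 0.000528, n = 3 and 3). Camp had 1.86 (SE 0.54, 0.0116), short of the Log2FC limit, and S100a8 had -0.45 (adjusted p = 0.476), and the groups did not overlap for Camp, Lcn2 or S100a8, nor for 42.1% of genes tested. Without Adar1 KO replicate 3 at 0 uM, and after quantile normalization, Camp was called too. The call of Lcn2 was lost with a pseudocount of 1 and when the 2 groups were fitted alone. Mature neutrophil markers summed to 208, 202 and 198 CPM in NTC and to 455, 498 and 529.9 CPM in Adar1 KO at 0 uM, with Trem1 the most abundant and Retnlg and Padi4 at or below 3 counts in each. At 10 uM they summed to 154, 138 and 163 CPM in NTC and to 233, 183, 206 and 208 CPM in Adar1 KO. Macrophage markers summed to 4783 to 5080.5 CPM in Adar1 KO at 0 uM and to 2543.5 to 3103 CPM at 10 uM. In NTC they summed to 4672.5 to 4765 CPM at 0 uM and to 3761 to 4078 CPM at 10 uM. Monocyte markers summed to 1106 to 1397 CPM in NTC and to 627 to 691 CPM in Adar1 KO at 0 uM. At 10 uM the monocyte sums were 2087 to 2315 CPM in NTC and 1712 to 2290 CPM in Adar1 KO. The part of such shifts in the levels of members was not tested.

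At 10 uM against 0 uM in NTC, limma called 0 of 3 members, with 2 at an unadjusted p below 0.05, where 0.834% of genes tested were called in either direction and 28.4% had an unadjusted p below 0.05. S100a8 had a Log2FC of -0.78 (adjusted p = 0.224). Camp lay at or near the floor in both groups and Lcn2 at the floor at 0 uM, and their limma adjusted p values were 0.175 and 0.0579. In Adar1 KO the same doses gave 0 of 3, with 2 at an unadjusted p below 0.05, where 14.7% of genes tested were called and 68.7% had an unadjusted p below 0.05. Lcn2 had a Log2FC of -1.83 (SE 0.56, adjusted p = 0.0052), short of the Log2FC limit, Camp of -1.07 (0.0640) and S100a8 of 0.68 (0.128). Without Adar1 KO replicate 2 at 0 uM, or replicate 2 at 10 uM, Lcn2 was called.

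The difference between these 2 effects of 10 uM was itself tested, with the same 4 groups. Lcn2 differed, with a Log2FC difference of -3.51 (SE 0.81, limma adjusted p = 0.00124), 1 of 3 members, where 4.52% of genes tested differed in this direction. Since NTC at 0 uM was at the floor for Lcn2, this size depends on the floor, and the call was lost with a pseudocount of 1 and when the 4 groups were fitted alone. For S100a8 the difference was 1.45 (SE 0.57, adjusted p = 0.0437), short of the Log2FC limit, and for Camp it was 0.04 (adjusted p = 0.973). Of 9 other secondary and tertiary granule genes tested, 1 was higher in Adar1 KO than in NTC at 0 uM (Chil3, Log2FC 3.83), 2 were lower at 10 uM in NTC (Mmp9 -2.36, Chil3 -2.35) and 3 in Adar1 KO (Chil3 -3.13, Mmp9 -2.40, Adam8 -2.26).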

How the data were processed

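RNA-seq libraries were made into transcript counts by the authors with kallisto 0.46.0 on the GRCm39 transcriptome, and the deposited values are log2 CPM after the authors' TMM normalization in edgeR. CPM was rebuilt by subtracting the lowest value of each set on the linear scale. Of 29957 features, 1 without a gene name was left out (0.00226 to 0.0584% of a library). The genes tested passed a CPM of 1 in 3 or more libraries, or 6 or more in the set with cells from brain, and the test was limma 3.58.1 in R 4.3.3, with a trend and Benjamini-Hochberg adjustment over all genes tested. Code, in Python 3.11.15 with numpy 2.4.6 and pandas 2.3.3, was tested on simulated data. The members and lists were chosen with earlier results of these data known. Named genes are the members, Adar, up to 3 called genes per list with the largest Log2FC whose groups do not overlap, and the 5 genes most like Mpo, Ngp and S100a8. Replicate numbers were checked for pairing: residuals of equal numbers correlated in day 4 cells and ER-Hoxb8 progenitors (r = 0.226, 0.372 and 0.427) and in Adar1 KO 1 and NTC progenitors (0.349, 0.158 and 0.217), and a block for the replicate changed no member count there. Some pairs of other comparisons correlated as well. Among them were replicates 1 and 3 of Adar1 KO 1 and NTC macrophages (0.158 and 0.153) and replicates 1 and 2 of BM monocytes and BM progenitors (0.224 and 0.182). Other settings were a pseudocount, a filter, a limit of 1 on Log2FC, quantile normalization, groups fitted alone, a replicate block and leaving out libraries. A check of the brain cells on microglia markers is not reported here.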

Additional observations from a re-analysis of the deposited data

Results flagged for a closer look

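Among 51 combinations of a member and a group of 4 to 9 libraries, 2 had a library far from the others, and chance gives about 1 in 20, so 2 of 51 is no more than chance gives. Ctsg was at 3.14 CPM in microglia replicate 5, against 0 to 0.390 CPM in the other 8 microglia libraries. Ltf was at 3.37 CPM in microglia replicate 8, one of the YSWT columns, against 35.3 to 328 CPM in the others. In the test of the difference between the 10 uM effects in Adar1 KO and in NTC, Lcn2 had a Log2FC difference of -3.51 and S100a8 of 1.45. Lcn2 passed the filter through Adar1 KO libraries alone and was at the floor in NTC at 0 uM, and its call was lost with a pseudocount of 1 and with the groups fitted alone. S100a8 in Adar1 KO at 0.4 uM baricitinib, a dose in no test, had a median of 244 CPM, above the libraries at 0 uM in both cell types, while its replicate 2 was at 72.2 CPM.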

How the results depend on the processing

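Over the 65 Log2FC values of single members with an adjusted p below 0.05 in the tests, the alternatives gave 1537 values with the same direction and side of the threshold, 61 no longer past it, 5 newly past it and 0 reversed. Fits in which a member fell below the filter, as Elane did for guide 2, are not in these counts, nor is the Log2FC limit of 1. Many of the alternatives left out a library of a group outside the comparison, which can change a value little. Members outside these 65 could be newly called, and for ER-Hoxb8 MLCs against microglia Camp and Lcn2 turned from lower with the GFPHox libraries to higher with the WTHox libraries. Leaving out 1 library at a time, the number of members called ranged from 6 to 9 for ER-Hoxb8 against BM progenitors, 0 to 2 for day 4 cells, 6 to 8 for BMD MLCs against microglia, 0 to 1 for ER-Hoxb8 MLCs against microglia, 2 to 8 for ER-Hoxb8 against BMD MLCs, 2 to 5 for Adar1 KO 1 against NTC macrophages (with 1 NTC library left in some of these fits), 3 to 4 for Adar1 KO 2 macrophages, 1 to 2 for Adar1 KO against NTC at 0 uM and 0 to 1 for 10 uM in Adar1 KO. For ER-Hoxb8 MLCs against microglia it was 3 with the GFPHox and 6 with the WTHox libraries. For BMD MLCs against BMD macrophages it was 8 with only the GFPHox and 6 with only the WTHox libraries of ER-Hoxb8 MLCs in the fit. For ER-Hoxb8 against BMD MLCs it was 2 with no filter, 1 with the groups alone, 7 with a replicate block, 9 with the GFPHox and 0 with the WTHox libraries. A pseudocount of 1 gave 1 for Adar1 KO 1 against NTC macrophages, 0 for Adar1 KO against NTC at 0 uM and 0 for the difference of the 10 uM effects. Groups fitted alone gave 0 for the last 2 of these. A Log2FC limit of 1 gave 2 for Adar1 KO against NTC at 0 uM, 1 for 10 uM in Adar1 KO and 2 for the difference of the 10 uM effects, and quantile normalization gave 2 for Adar1 KO against NTC at 0 uM. The cause was not tested, except that a lower limit passes more genes by construction. Depth limits values at or below 3 counts, where folds are bounds.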
